A study of Caenorhabditis elegans with 10 samples.

Results

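The 10 genes lin-26, elt-1, elt-3, elt-5, elt-6, ajm-1, dlg-1, sma-1, vab-10 and bus-8, which build the embryonic epidermis of the nematode Caenorhabditis elegans, were followed across salt, strain and parental salt exposure. They were taken by name from a deposited table of 45461 genes. The table holds 9 of the 10 names as such, and elt-5 appears under its other name egl-18 (F55A8.1), a synonym taken from general knowledge. All 10 genes passed the filter on low counts, in a set of 14802 tested genes. RNA came from embryos 3 hours after egg preparation, in 5 groups of 2 libraries. In the preconditioned group, N2 300-500 mM, the parents were kept at 300 mM NaCl and the embryos at 500 mM. Parents of the other 4 groups were kept at 50 mM. Their embryos were kept at 500 mM (lin-45 500 mM, N2 500 mM) or at 50 mM (lin-45 50 mM, N2 50 mM). N2 is the wild-type strain, and lin-45(n2018) carries an allele of the worm's RAF kinase gene, which acts between RAS and ERK signalling. The labels do not say whether the 2 libraries of a group came from separate cultures, so p-values rest on library spread alone, which may be of technical origin.

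The epidermis of the worm embryo is a single sheet of cells that spreads over the embryo, closes on the ventral side and then contracts to stretch the body into a worm. ELT-1, a GATA zinc finger factor, starts epidermal fate, LIN-26 maintains it, and further GATA factors act later in the main epidermis (ELT-3) or in the lateral seam cells (ELT-5 and ELT-6). The cells are held together by the apical junction, where AJM-1 and the scaffold protein DLG-1 sit basal to the cadherin complex. The apical spectrin SMA-1 and the spectraplakin VAB-10 carry the forces of elongation, and BUS-8, a predicted glycosyltransferase, is needed for epidermal cell migration and for the body surface.

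Most of the 10 genes were higher on 500 mM in both strains and lower in lin-45 than in N2 on 50 mM. After parental exposure 4 of the 5 regulators rose, with bus-8. Of these calls, those of elt-1 and elt-5 were lost in a fit of the compared groups alone. Those of elt-1, elt-5 and bus-8 depended on single libraries. On 500 against 50 mM, 8 of 10 rose and 1 fell in lin-45, where 33.4% of all tested genes rose and 34.9% fell. In N2, 6 rose and 1 fell, where 31.4% of all genes rose and 32.1% fell. On 50 mM, 7 of 10 fell in lin-45 relative to N2, against 21.1% of all genes, where 33.2% of all genes rose. In preconditioned embryos 5 of 10 rose relative to other N2 embryos on 500 mM, against 10.2% of all genes, and 8 of 10 rose relative to N2 50 mM, against 30.4%. The salt effect was more positive in lin-45 than in N2 for 5 of 10, against 12.2% of all genes. Levels are given in TMM-scaled CPM, the reads of a gene per total reads of its library on a common scale, or in FPKM, which also divides by transcript length. A gene is counted where edgeR's quasi-likelihood test passed an adjusted p of 0.05. In bulk embryos, fewer epidermal cells and less RNA per cell cannot be told apart.

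**Figure D1:**
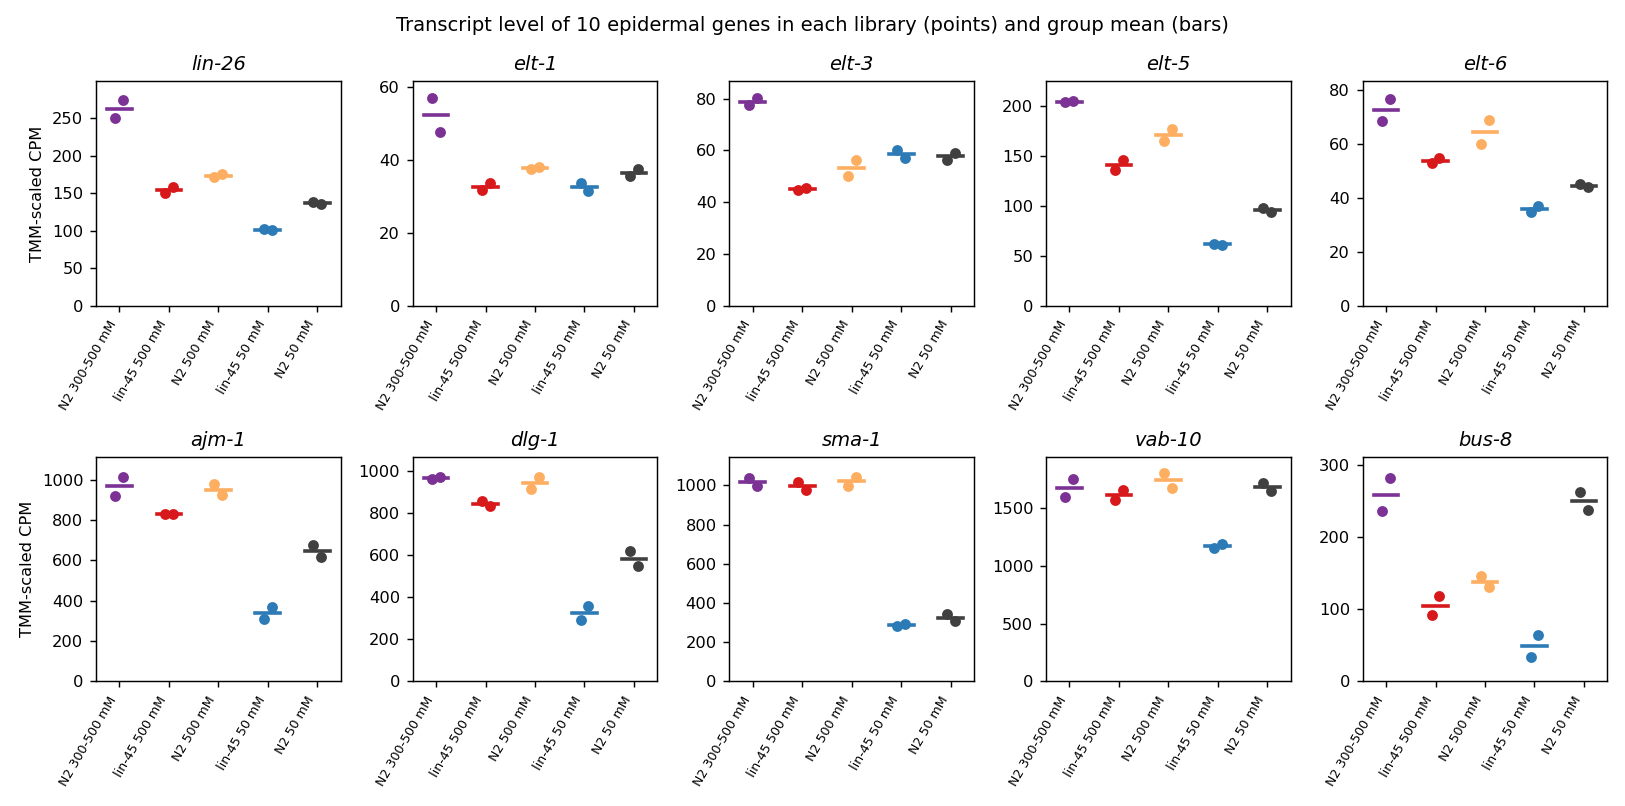
TMM-scaled CPM (y axis) of each gene in the 10 libraries by group (x axis); points are libraries and bars are means of 2 libraries. The sma-1 libraries on 500 mM sit between 976 and 1043 CPM, all above those on 50 mM, while bus-8 is lowest in lin-45 at 50 mM, at 33.5 and 64.2 CPM.

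The counts per library ranged from 22138098 to 34585489. Replicates were least alike in N2 300-500 mM, where 794 genes differed at least 2-fold between the libraries, and in lin-45 at 50 mM, with 694, against 127 to 268 in the other groups. In lin-45 50 mM the replicates of bus-8 stood apart by a ratio of 1.92, those of dlg-1 by 1.23 and those of ajm-1 by 1.19. Those of the remaining genes stood apart by ratios of 1.0 to 1.07. The choice of scaling moved the comparison of the strains on 50 mM. There the median log2 change of all genes was 0.16, and it was lower by 0.096 with upper-quartile factors and by 0.142 in a fit of those groups alone. Of the genes called, 61.2% were higher in lin-45 at 50 mM, and 51.3% with upper-quartile factors. In the comparison of salt effects 46.0% of the called genes were more positive in lin-45, 57.3% with RLE factors and 65.8% with upper-quartile factors, which raised the median of all genes by 0.104.

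By the deposited coordinates on genome build ce10, 4 of the genes lie on chromosome X, which are elt-3 (13934814 to 13941149), ajm-1 (9092225 to 9113562), dlg-1 (5479665 to 5484906) and bus-8 (5492943 to 5496252), all on the plus strand. dlg-1 and bus-8 are separated by 8036 bp and 3 protein-coding genes. Chromosome IV holds elt-1 (9615138 to 9620124) and the neighbours elt-5 (1902322 to 1918310) and elt-6 (1917853 to 1921640), whose gene models share 458 bp on the plus strand. lin-26 lies on chromosome II (7681913 to 7686214), sma-1 on V (11899544 to 11916604) and vab-10 on the minus strand of I (11747418 to 11792109). vab-10 is the longest model, with 14 coding transcripts in Ensembl's annotation of the gene, of 4491 to 15177 coding bases, so its value sums products of very different length. lin-26 shares 701 bp with lir-1 on its own strand and 1378 bp with F18A1.1, ajm-1 shares 5178 bp with H08J11.2, and bus-8 meets T23F2.2 on the opposite strand over 222 bp. The strand setting of the counting is not given in the sources used here, so reads in these stretches cannot be assigned with certainty.

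Per transcript length, the junction genes were the most abundant of the 10. The mean over all libraries was 199 FPKM for dlg-1 and 188 for ajm-1, above 95.8% and 95.4% of the tested genes. vab-10 followed at 139 FPKM, then lin-26 at 91.4, elt-5 at 85.4, bus-8 at 69.6, sma-1 at 56.8, elt-3 at 42.7 and elt-6 at 37.6. elt-1 was the lowest, at 21.0 FPKM, above 57.6% of the tested genes. Within each library dlg-1 and ajm-1 stayed near 1 to 1, with FPKM ratios of 0.961 to 1.15. The ratio of elt-6 to elt-5 was 0.371 and 0.412 in preconditioned embryos, 0.431 and 0.413 in lin-45 at 500 mM, 0.401 and 0.424 in N2 at 500 mM, 0.604 and 0.664 in lin-45 at 50 mM, and 0.51 and 0.513 in N2 at 50 mM. The ratio was thus lower in all 6 libraries on 500 mM than in all 4 on 50 mM.

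lin-26, the zinc finger gene that maintains epidermal fate, followed both salt and parental salt. Its level in replicates 1 and 2 was 250.2 and 274 CPM in N2 300-500 mM, 150.2 and 158 in lin-45 at 500 mM, 171 and 175 in N2 at 500 mM, 102 and 101 in lin-45 at 50 mM, and 139 and 136 in N2 at 50 mM. No group overlapped another, and the order ran from preconditioned embryos at the top to lin-45 50 mM at the bottom. In preconditioned embryos lin-26 rose by log2 0.60 ± 0.07 (SE, adjusted p = 0.00114) over N2 500 mM and by 0.93 ± 0.07 (adjusted p = 1.9e-05) over N2 50 mM. On salt it rose by 0.60 ± 0.07 in lin-45 (adjusted p = 0.000108) and by 0.34 ± 0.07 in N2 (adjusted p = 0.00356). The N2 value was 0.20 without a low-count filter (adjusted p = 0.0586). In lin-45 50 mM it fell, at -0.44 ± 0.07 (adjusted p = 0.0013). The salt effects of the strains differed by 0.27 ± 0.10 (adjusted p = 0.0831), which did not pass. It passed at 0.33 to 0.41 with RLE factors (adjusted p = 0.0445), with upper-quartile factors (adjusted p = 0.024), with no low-count filter (adjusted p = 0.0349), with limma (adjusted p = 0.017) and in the fit of these groups alone (adjusted p = 0.00902). It also passed without N2 300-500 mM replicate 1 or 2 (0.42, adjusted p = 0.00864 and 0.00859). The overlapping gene lir-1, named for its position, stood at 118.6 and 125 CPM in N2 300-500 mM and at 111 and 115 CPM in N2 at 500 mM, a difference of 0.11 ± 0.07 (adjusted p = 0.295). On salt and between the strains on 50 mM lir-1 had the signs of lin-26, with a rise on salt of 0.67 ± 0.07 in lin-45 (adjusted p = 5.01e-05) and 0.49 ± 0.07 in N2 (adjusted p = 0.000342), and -0.28 ± 0.07 between the strains on 50 mM (adjusted p = 0.00907).

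elt-1 and elt-3 were the GATA genes with no called rise on salt. elt-1 had 57.0 and 47.8 CPM in N2 300-500 mM, 31.8 and 33.7 in lin-45 at 500 mM, 37.6 and 38.0 in N2 at 500 mM, 33.7 and 31.5 in lin-45 at 50 mM, and 35.7 and 37.5 in N2 at 50 mM. The preconditioned libraries stood above all 8 others, and both lin-45 groups overlapped each other. elt-1 rose by 0.47 ± 0.10 over N2 500 mM (adjusted p = 0.0115) and by 0.52 ± 0.10 over N2 50 mM (adjusted p = 0.00234). The first call was lost without N2 300-500 mM replicate 1 (0.27, adjusted p = 0.0543), N2 500 mM replicate 1 (adjusted p = 0.0706) or replicate 2 (adjusted p = 0.0662), and in the fit of those groups alone (adjusted p = 0.102). Its salt effect was 0.01 ± 0.10 in lin-45 and 0.05 ± 0.10 in N2 (adjusted p = 0.957 and 0.689). On 50 mM the strains differed by -0.17 ± 0.10 (adjusted p = 0.186), which passed without N2 300-500 mM replicate 1 or 2 (adjusted p = 0.0077 and 0.00748) and in the fit of those groups alone (adjusted p = 0.0183).

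elt-3, which has been linked genetically to the hypertonic induction of glycerol and antimicrobial genes, had 77.6 and 80.1 CPM in N2 300-500 mM, 44.7 and 45.5 in lin-45 at 500 mM, 50.3 and 56.3 in N2 at 500 mM, 60.02 and 57.1 in lin-45 at 50 mM, and 56.4 and 59.0 in N2 at 50 mM. It was highest after parental exposure and lowest in lin-45 at 500 mM, and both 50 mM groups overlapped. elt-3 fell on salt in lin-45, at -0.38 ± 0.08 (adjusted p = 0.0027), a call lost without lin-45 500 mM replicate 2 (-0.25, adjusted p = 0.0872). The N2 salt effect was -0.12 ± 0.08 (adjusted p = 0.228; -0.25 and 0.0492 with no low-count filter), and the difference between the strains' salt effects was -0.26 ± 0.11 (adjusted p = 0.115). Preconditioned embryos exceeded N2 500 mM by 0.57 ± 0.08 (adjusted p = 0.002) and N2 50 mM by 0.45 ± 0.08 (adjusted p = 0.00149).

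The seam cell GATA genes elt-5 and elt-6 rose on salt in both strains. elt-5 had 203 and 205 CPM in N2 300-500 mM, 136 and 146 in lin-45 at 500 mM, 165 and 177 in N2 at 500 mM, 61.4 and 61.3 in lin-45 at 50 mM, and 97.5 and 94.3 in N2 at 50 mM, with no overlap between any groups. elt-6 had 68.4 and 76.4 CPM in N2 300-500 mM, 53.0 and 54.6 in lin-45 at 500 mM, 60.1 and 68.9 in N2 at 500 mM, 34.6 and 36.9 in lin-45 at 50 mM, and 45.1 and 43.8 in N2 at 50 mM. Both genes thus had the same order of groups, with preconditioned and N2 500 mM overlapping for elt-6 alone. elt-5 rose by 1.2 ± 0.07 on salt in lin-45 (adjusted p = 2.41e-06) and by 0.83 ± 0.07 in N2 (adjusted p = 1.98e-05), and elt-6 by 0.59 ± 0.09 (adjusted p = 0.000556) and 0.54 ± 0.09 (adjusted p = 0.0011). In lin-45 50 mM elt-5 fell, at -0.64 ± 0.07 (adjusted p = 0.000227), and so did elt-6, at -0.31 ± 0.09 (adjusted p = 0.0205). The elt-6 call was lost without N2 50 mM replicate 1 (adjusted p = 0.0994), N2 50 mM replicate 2 (adjusted p = 0.0646) or lin-45 50 mM replicate 1 (adjusted p = 0.115). elt-5 was higher in preconditioned embryos than in N2 500 mM, by 0.26 ± 0.07 (adjusted p = 0.0334). That call ended in 7 of 10 fits that left out 1 library, with the replicate block (adjusted p = 0.0562) and in the fit of those groups alone (adjusted p = 0.126). Of the 10 fits, it held without either lin-45 50 mM library or without N2 300-500 mM replicate 2. In those 7 fits, which left out N2 300-500 mM replicate 1, either library of N2 500 mM, of lin-45 500 mM or of N2 50 mM, the adjusted p was 0.0572 to 0.18. The same difference for elt-6 was 0.17 ± 0.09 (adjusted p = 0.225).

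The junction genes ajm-1 and dlg-1 rose on salt in both strains and had nearly equal levels in each group. ajm-1 had 919 and 1016 CPM in N2 300-500 mM, 831 and 832 in lin-45 at 500 mM, 978 and 923 in N2 at 500 mM, 309 and 369 in lin-45 at 50 mM, and 677 and 620 in N2 at 50 mM. dlg-1 had 958 and 970.3 CPM in N2 300-500 mM, 854 and 831 in lin-45 at 500 mM, 911 and 972 in N2 at 500 mM, 292 and 359 in lin-45 at 50 mM, and 619 and 545 in N2 at 50 mM. For both genes the preconditioned and the N2 500 mM libraries overlapped, and every other group stood apart, with lin-45 50 mM lowest. On salt ajm-1 rose 2.45-fold in lin-45 (log2 1.29 ± 0.10, adjusted p = 9.26e-06) and 1.47-fold in N2 (0.55 ± 0.10, adjusted p = 0.0014). dlg-1 rose 2.59-fold in lin-45 (1.37 ± 0.11, adjusted p = 9.31e-06) and 1.62-fold in N2 (0.69 ± 0.11, adjusted p = 0.000553). On 50 mM both genes fell in lin-45 relative to N2, ajm-1 at -0.94 ± 0.10 (adjusted p = 0.000196) and dlg-1 at -0.84 ± 0.11 (adjusted p = 0.000357). The preconditioned embryos differed from N2 500 mM by 0.03 ± 0.10 for ajm-1 (adjusted p = 0.878) and by 0.04 ± 0.11 for dlg-1 (adjusted p = 0.838). H08J11.2, which overlaps ajm-1, stood at 5.36 to 36.5 CPM and had the signs of ajm-1 on salt (1.94 ± 0.20 in lin-45 and 1.37 ± 0.19 in N2) and between the strains on 50 mM (-0.89 ± 0.20).

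The apical spectrin gene sma-1 had the largest salt response of the 10 in each strain. sma-1 had 1037 and 998 CPM in N2 300-500 mM, 1018 and 976 in lin-45 at 500 mM, 997 and 1043 in N2 at 500 mM, 280.4 and 291 in lin-45 at 50 mM, and 344 and 306 in N2 at 50 mM. The 3 groups on 500 mM overlapped one another, all above the 4 libraries on 50 mM, where lin-45 lay below N2. It rose 3.49-fold on salt in lin-45 (log2 1.80 ± 0.08, adjusted p = 5.91e-07) and 3.14-fold in N2 (1.65 ± 0.08, adjusted p = 1.24e-06). These effects differed by 0.15 ± 0.11 (adjusted p = 0.33). Preconditioned embryos differed from N2 500 mM by -0.0035 ± 0.08 (adjusted p = 0.979). On 50 mM the strains differed by -0.19 ± 0.08 (adjusted p = 0.0736), which passed with RLE factors (-0.23, adjusted p = 0.0352), with upper-quartile factors (-0.28, adjusted p = 0.017), with DESeq2 (adjusted p = 0.0403), with limma (adjusted p = 0.0201), with no low-count filter (adjusted p = 0.00791) and in the fit of those groups alone (adjusted p = 0.02). It also passed without N2 300-500 mM replicate 1 (adjusted p = 0.00525) or 2 (adjusted p = 0.00522) or lin-45 500 mM replicate 2 (adjusted p = 0.021).

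vab-10, whose products anchor the epidermis to muscle and link actin to microtubules, had 1589.5 and 1746 CPM in N2 300-500 mM, 1562 and 1648 in lin-45 at 500 mM, 1797 and 1672 in N2 at 500 mM, 1152 and 1182 in lin-45 at 50 mM, and 1713 and 1646 in N2 at 50 mM. The libraries of lin-45 50 mM were the lowest, and neighbours in the order of the other 4 groups overlapped. vab-10 fell in lin-45 at 50 mM, at -0.53 ± 0.08 (adjusted p = 0.00072), and rose on salt by 0.46 ± 0.08 in lin-45 (adjusted p = 0.000804), while the N2 salt effect was 0.05 ± 0.08 (adjusted p = 0.616). Within a library the FPKM ratio of sma-1 to vab-10 was 0.496 to 0.592 in the 6 libraries on 500 mM and 0.159 to 0.208 in the 4 on 50 mM.

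bus-8 was the 1 gene of the 10 whose salt effect passed in opposite directions in both strains. It had 236 and 281 CPM in N2 300-500 mM, 91.5 and 118 in lin-45 at 500 mM, 146 and 131 in N2 at 500 mM, 33.5 and 64.2 in lin-45 at 50 mM, and 262 and 238 in N2 at 50 mM. The preconditioned libraries overlapped N2 50 mM, and every other group stood apart. On salt bus-8 rose by 1.09 ± 0.26 in lin-45 (adjusted p = 0.00507) and fell by log2 0.85 ± 0.26 in N2, where its level was 0.554 of that on 50 mM (adjusted p = 0.0175). The lin-45 value was 0.70 without lin-45 50 mM replicate 1 and 1.63 without replicate 2 (adjusted p = 0.00978 and 0.000152). The N2 call was lost without N2 50 mM replicate 1 (-0.78, adjusted p = 0.0776), N2 500 mM replicate 1 (-0.93, adjusted p = 0.0538) or replicate 2 (-0.77, adjusted p = 0.0959). On 50 mM bus-8 fell in lin-45 to 0.196 of N2 (log2 -2.35 ± 0.27, adjusted p = 0.000239), with -1.96 without lin-45 50 mM replicate 1 and -2.89 without replicate 2. The neighbour T23F2.2, which overlaps it on the opposite strand and is named for that, had 77.4 and 81.7 CPM in lin-45 at 50 mM and 103 and 107 in N2 at 50 mM, at -0.40 ± 0.12 (adjusted p = 0.0241). In preconditioned embryos bus-8 rose by 0.90 ± 0.26 over N2 500 mM (adjusted p = 0.0363), a call lost in 7 of 10 fits without 1 library. These 7 left out N2 300-500 mM replicate 2 or either library of N2 500 mM, lin-45 500 mM or N2 50 mM, with adjusted p = 0.0514 to 0.178. The difference from N2 50 mM was 0.05 ± 0.25 (adjusted p = 0.881).

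**Figure D2:**
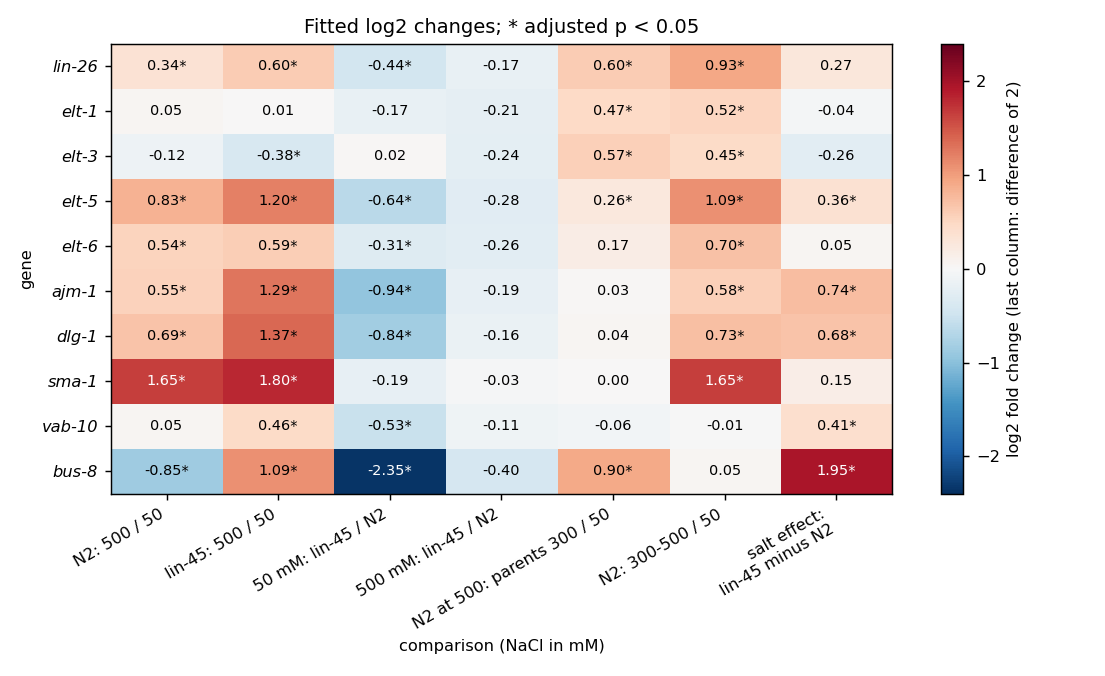
Log2 fold changes of the 10 genes (rows) in each comparison (columns), with the last column for the lin-45 salt effect less the N2 one; an asterisk marks an adjusted p below 0.05 in the edgeR fit. bus-8 spans from -2.35 (lin-45 over N2 on 50 mM) to 1.09 (lin-45, 500 over 50 mM) among the fold changes, and the column for lin-45 over N2 on 500 mM holds values from -0.40 to -0.03.

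The comparison of salt effects asks where the mutation changes the response to salt. The effect was more positive in lin-45 for bus-8 (1.95 ± 0.37, adjusted p = 0.0102), ajm-1 (0.74 ± 0.14, adjusted p = 0.0107), dlg-1 (0.68 ± 0.15, adjusted p = 0.0155), vab-10 (0.41 ± 0.11, adjusted p = 0.0279) and elt-5 (0.36 ± 0.10, adjusted p = 0.0324). This contrast shares its libraries with the comparisons within each strain and salt level, and the same 5 genes had called differences between the strains on 50 mM, at -2.35 to -0.53. With the replicate number as a block, 3 of the 5 calls held, and vab-10 (adjusted p = 0.054) and elt-5 (adjusted p = 0.0537) were lost. Leaving out 1 library ended the ajm-1 call without N2 50 mM replicate 1 (adjusted p = 0.0543) or N2 500 mM replicate 2 (adjusted p = 0.0503). The dlg-1 call ended without N2 50 mM replicate 1 (adjusted p = 0.0725), N2 500 mM replicate 1 (adjusted p = 0.0509) or 2 (adjusted p = 0.0518), or lin-45 500 mM replicate 1 (adjusted p = 0.0567). The vab-10 call ended in 5 such fits, without either N2 50 mM library, N2 500 mM replicate 2, lin-45 50 mM replicate 1 or lin-45 500 mM replicate 1 (adjusted p = 0.0663 to 0.11). The elt-5 call ended in the 8 fits that left out a library of any group compared (adjusted p = 0.0518 to 0.115). For bus-8 the value was log2 1.55 to 2.49 over these fits, and some of them lay close to the threshold.

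**Figure D3:**
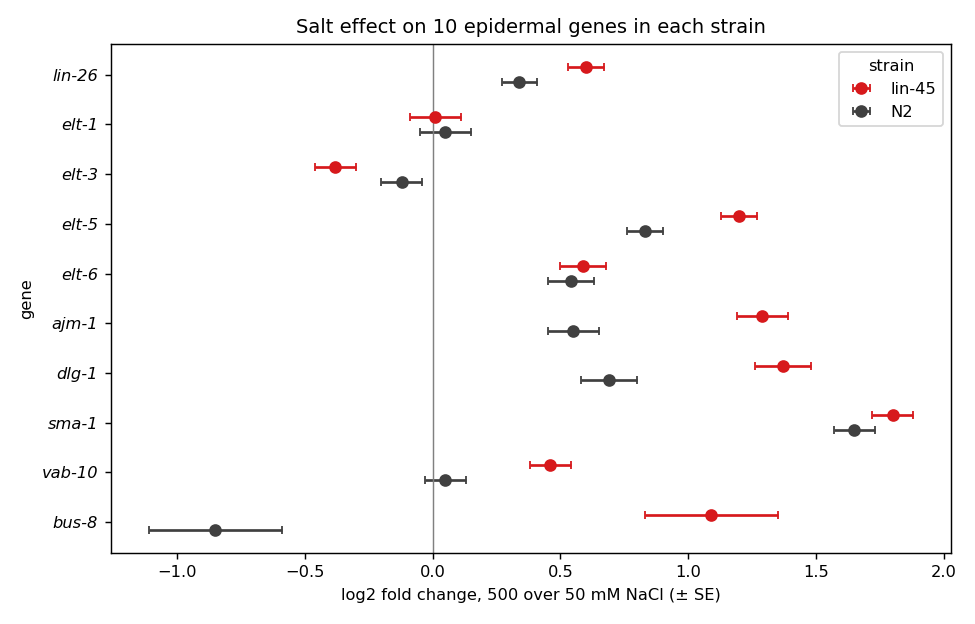
Log2 fold change on 500 over 50 mM NaCl (x axis, ± SE) for each gene (y axis), lin-45 above N2 in each pair. The bus-8 points lie on opposite sides of 0, at 1.09 in lin-45 and -0.85 in N2, while those of sma-1 lie at 1.80 and 1.65.

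On 500 mM the strains had no called difference among the 10 genes. edgeR called 0 of the 10 genes between lin-45 500 mM and N2 500 mM, where it called 6.49% of all tested genes. With 10 genes, 0 calls lie near that share and do not set these genes apart. DESeq2 and limma on log2 FPKM also called 0, and 4 had an unadjusted p below 0.05 in edgeR. The nearest was elt-5, at -0.28 ± 0.07 (adjusted p = 0.0531), which passed without N2 300-500 mM replicate 1 or 2 (adjusted p = 0.0366 each) and in the fit of those groups alone (adjusted p = 0.0295), as did bus-8 there (-0.40, adjusted p = 0.0439). For 9 of the 10 genes both lin-45 libraries lay below both N2 libraries, a pattern found in 30.1% of all tested genes, and sma-1 was the exception. On 50 mM the same pattern held for 9 of 10 genes, with elt-3 as the exception, against 32.3% of all genes. Set against the median of all genes there, elt-3 stood at -0.14 and elt-1 at -0.33, and bus-8 at -2.51.

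Of the 10 genes, 4 of the 5 regulators passed after parental exposure, and the structural genes ajm-1, dlg-1, sma-1 and vab-10 did not. The calls of elt-1 and elt-5, and that of bus-8, depended on single libraries. Those of elt-1 and elt-5 were also lost in the fit of the compared groups alone. Genes of other structural lists rose in the same comparison, as given below. lin-26, elt-1, elt-3 and elt-5 rose over N2 500 mM with bus-8, at 0.26 to 0.90, while elt-6, ajm-1, dlg-1, sma-1 and vab-10 gave -0.06 to 0.17 with SE of 0.08 to 0.11. Whether the regulators and the structural genes differ from each other was not tested. Against N2 50 mM, which shares its preconditioned libraries with the comparison above, 8 of 10 rose, and vab-10 (-0.01 ± 0.08) and bus-8 (0.05 ± 0.25) did not pass. All 8 calls held in each of 10 fits without 1 library.

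Other genes of the epidermis were read from lists written from general knowledge. Of 11 genes of the cadherin complex and its partners, 7 rose on salt in lin-45, and 8 rose and 2 fell in N2, with medians of 0.52 and 0.34. The giant cadherin genes cdh-3 and cdh-4 rose by 2.31 ± 0.20 and 1.84 ± 0.10 in lin-45 and by 0.91 ± 0.19 and 0.92 ± 0.10 in N2. On 50 mM, 8 of the 11 fell in lin-45, among them the cadherin gene hmr-1 at -0.69 ± 0.08. Of 17 genes of the actomyosin and spectrin machinery of elongation, 14 rose and 1 fell on salt in lin-45, 9 rose and 2 fell in N2, and 11 fell and 2 rose in lin-45 on 50 mM. Of 10 apicobasal polarity genes 6 rose and 1 fell on salt in each strain, with the Crumbs gene crb-1 at 2.53 ± 0.19 in lin-45 and 1.40 ± 0.18 in N2. In preconditioned embryos 5 of the 11 cadherin genes and 4 of the 10 polarity genes rose over N2 500 mM, and none fell. Of the 17 actomyosin and spectrin genes 5 rose and 1 fell there. Among all tested genes, 33.4% rose and 34.9% fell on salt in lin-45, and 31.4% and 32.1% in N2. For lin-45 over N2 on 50 mM the shares were 33.2% higher and 21.1% lower. For preconditioned embryos over N2 500 mM they were 10.2% higher and 12% lower. Whether these lists differ from all tested genes was not tested.

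Attachment and surface genes were read in the same way. The attachment list held genes of hemidesmosomes and intermediate filaments, but also unc-52, pat-2, pat-3 and eps-8. The last is also in the actomyosin list. Of the 12 attachment genes tested, 6 rose and 2 fell on salt in lin-45. In N2, 4 rose and 6 fell, with let-805 (myotactin, a transmembrane protein) at -0.54 ± 0.09. Their median was 0.14 in lin-45 and -0.26 in N2, against -0.02 and -0.01 for all genes. The 4 of 12 that rose in N2 lie near the share of all tested genes, 31.4%. On 50 mM 8 of these 12 fell and 1 rose in lin-45, where 21.1% of all tested genes fell and 33.2% rose. The intermediate filament gene ifa-3 gave -2.54 ± 0.24 there. Of 7 measured surface genes of the bus and srf classes, 3 rose and 1 fell on salt in lin-45, and 1 rose and 3 fell in N2. Their medians were 0.19 and -0.61. With 7 genes, these counts lie near the shares of all tested genes. Those shares were 33.4% higher and 34.9% lower in lin-45, and 31.4% and 32.1% in N2. bus-4 had the same signs as bus-8, with 1.13 ± 0.28 in lin-45, -0.78 ± 0.27 in N2 and -2.26 ± 0.29 between the strains on 50 mM. In preconditioned embryos 3 of the 7 rose over N2 500 mM, against 10.2% of all tested genes, and bus-18, srf-3 and bus-17 gave 0.62, 0.62 and 0.51.

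Of 15 further epidermal transcription factor genes, 6 rose and 4 fell on salt in lin-45, and 5 rose and 4 fell in N2. These counts lie near the shares of all tested genes, at 33.4% higher and 34.9% lower in lin-45 and 31.4% and 32.1% in N2. nhr-23, a regulator of moulting, rose by 1.44 ± 0.12 on salt in N2 and by 1.04 ± 0.12 in lin-45 over N2 on 50 mM, while the Grainyhead gene grh-1 gave -1.80 ± 0.20 on 50 mM. In preconditioned embryos 5 of the 15 rose over N2 500 mM, against 10.2% of all tested genes. They were led by blmp-1 at 0.58 ± 0.07, with the nuclear receptor gene nhr-25 at 0.33 ± 0.08.

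Markers of stage and of other tissues were read in the same comparisons. On salt 33.4% of all tested genes rose and 34.9% fell in lin-45, and 31.4% and 32.1% in N2. Between the strains on 50 mM, 33.2% rose and 21.1% fell in lin-45, and 30.4% rose in preconditioned embryos over N2 50 mM. Counts near these shares, as for the intestinal genes and the neuronal rises in N2, do not set a list apart from other genes. Of 10 genes of the late embryonic epidermis and sheath, 10 rose on salt in lin-45 and 7 in N2, and in lin-45 on 50 mM 7 fell and 2 rose. Their summed level was 4356 to 4391 CPM in N2 300-500 mM, 2879 to 2920.3 in lin-45 at 500 mM, 3729.5 to 4041 in N2 at 500 mM, 508 to 649.8 in lin-45 at 50 mM and 1468 to 1791 in N2 at 50 mM. Of 14 maternal and early embryonic genes 11 rose and 1 fell on salt in lin-45, and 8 rose and 1 fell in N2, while their summed level was lower on salt in both strains. That sum was 343 to 518 CPM in N2 300-500 mM, 383 to 429 in lin-45 at 500 mM, 323 to 344 in N2 at 500 mM, 497 to 498 in lin-45 at 50 mM and 389 to 390.1 in N2 at 50 mM. Summed intestinal markers (7 genes) stood at 895 to 1027 CPM in N2 300-500 mM, 1189 to 1208 in lin-45 at 500 mM, 908 to 986 in N2 at 500 mM, 2957 to 3154 in lin-45 at 50 mM and 1997 to 2159 in N2 at 50 mM. The intestinal genes did not move as one: 2 rose and 4 fell on salt in lin-45 (median -0.47), and 3 rose and 3 fell in N2 (median -0.03). Of 8 neuronal markers 1 rose and 4 fell on salt in lin-45, and 2 rose and 5 fell in N2, with sums of 1388 to 1682 CPM in N2 300-500 mM, 1615 to 1642 in lin-45 at 500 mM, 1501 to 1517 in N2 at 500 mM, 2160.4 to 2274 in lin-45 at 50 mM and 1960.1 to 2009.9 in N2 at 50 mM. After parental exposure 3 of 8 body wall muscle markers fell and 1 rose, where 12% of all genes fell and 10.2% rose, with sums of 6427 to 7988 CPM in N2 300-500 mM and 9234 to 9982 in N2 at 500 mM. Of 8 germ line markers 6 rose on salt in lin-45 (median 0.93) and 4 in N2 (median 0.69), and 8 rose in preconditioned embryos over N2 50 mM (median 1.04), where 13 of the 14 maternal genes also rose and 1 fell (median 1.92). Over N2 500 mM 3 germ line markers rose, with sums of 77.6 to 98.3 CPM in N2 300-500 mM and 61.3 to 62.6 in N2 at 500 mM, and of 7 pharyngeal markers 2 rose and 1 fell, with sums of 2163 to 2579.6 and 2695 to 2836 CPM in the same groups. The part of these markers in the results for the 10 genes was not tested.

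**Figure D4:**
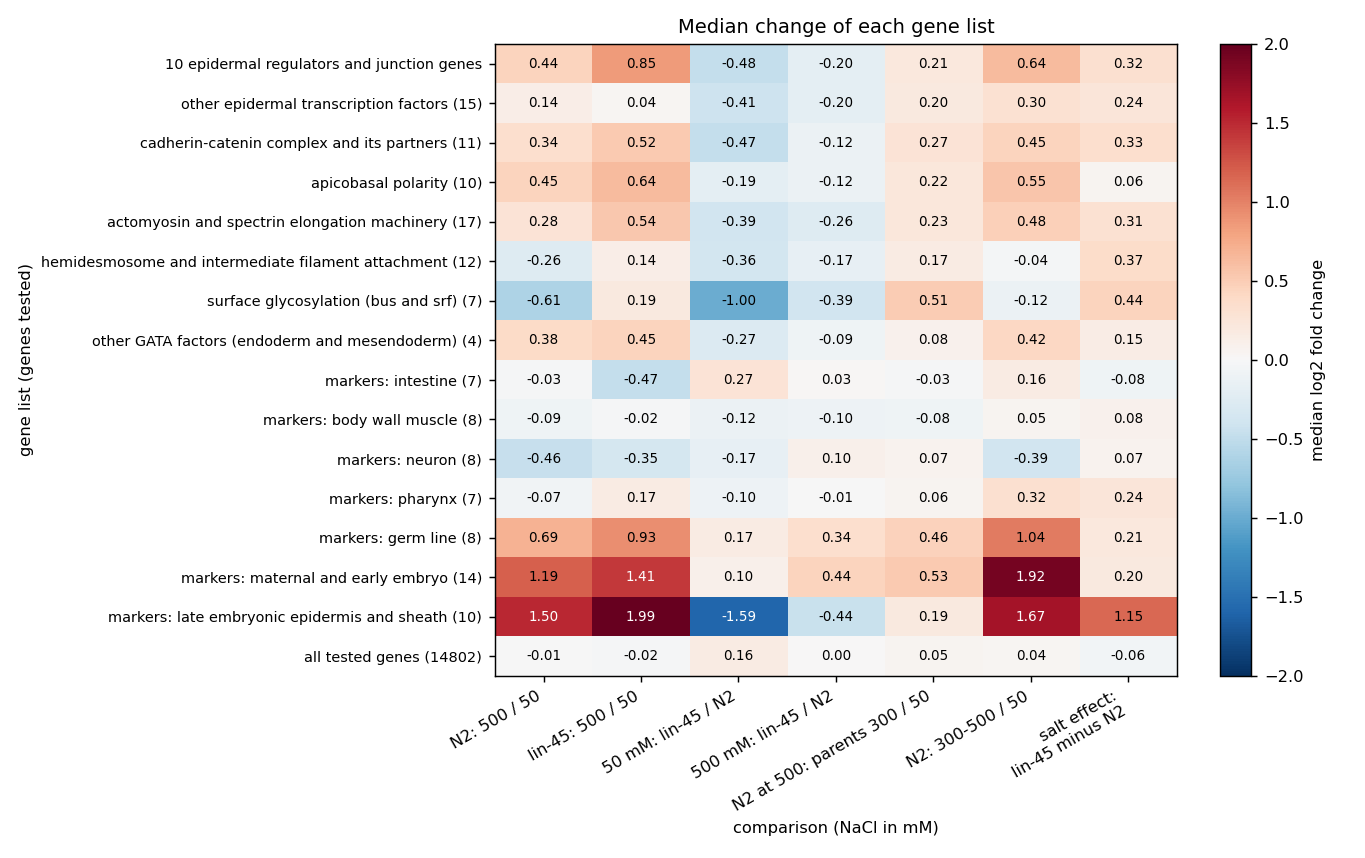
Median log2 fold change (colour and number) of each gene list (rows, genes tested in brackets) in each comparison (columns), with all tested genes in the bottom row. The 10 genes and the late epidermal list share the signs of their medians, for example -0.48 and -1.59 for lin-45 over N2 on 50 mM. The same signs are found for the cadherin (-0.47 there), polarity (-0.19), actomyosin (-0.39) and other epidermal transcription factor (-0.41) lists. They are also found in the row labelled other GATA factors of endoderm and mesendoderm (-0.27). Its 4 tested genes were elt-2, elt-4, elt-7 and egl-27. As end-1, end-3, med-1 and med-2 were not tested, the row does not stand for that class.

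The 10 genes were not equally alike across libraries. Over the 10 libraries, Pearson's r of log2(CPM + 1) was at least 0.9 in 12 of 45 pairs and had a median of 0.73. These values describe libraries that share 5 groups and are not independent tests. It was highest for ajm-1 and dlg-1 (0.99) and for elt-5 and elt-6 (0.98), which share part of their gene models. It was lowest for elt-3 with sma-1 (-0.03). Outside the 10, the gene most like each member was tag-53 for lin-26 (r = 0.988), the intestinal GATA gene elt-2 for elt-1 (0.951), Y45F10A.7 for elt-3 (0.97), C16H3.3 for elt-5 (0.998) and Y55B1BR.2 for elt-6 (0.988). For the structural genes it was the cadherin gene cdh-1 for ajm-1 (0.998), the moulting gene mlt-11 for dlg-1 (0.999), F07H5.13 for sma-1 (0.998), lgc-43 for vab-10 (0.991) and del-3 for bus-8 (0.997). As many as 599 genes had r of at least 0.95 with sma-1, against 1 gene with elt-1 and 9 with elt-3.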

How the data were processed

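The 10 libraries of 2 replicates per group came from poly(A) RNA, read in pairs, per the labels' protocols. BWA 0.6.1, bedtools 2.25.0, RSEM 1.2.15 and DESeq 1.10.1 and the build ce10 are listed in the submitters' processing notes; the sources used here give neither their roles nor an annotation or strand setting. The deposited expected counts are unnormalized estimates per gene, per the file headers, and were rounded. The deposited FPKM values, scaled by the authors to length and depth, served to compare levels between genes. The deposited log2 values equal log2(FPKM + 1). The authors' score column of variances was not used.

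Genes with at least 1 CPM in 2 libraries were kept (14802 genes, at least 99.89% of counts). TMM factors were 0.923 to 1.08. One edgeR 4.0.16 quasi-likelihood model (R 4.3.3) with a mean per group was fitted to all libraries, with 5 residual degrees of freedom and a common coefficient of variation of 13.1%. The 7 comparisons were tested two-sided, with Benjamini-Hochberg adjustment over all genes. The code was tested on simulated data. An exact test of 2 against 2 cannot go below p = 0.333, so calls rest on the pooled spread. Errors are SE derived from the test, as the absolute log2 change divided by the square root of its quasi-likelihood F. The 10 genes and the lists were chosen with earlier results of these data known. Named list genes are among the 4 called genes with the smallest p of a list in a comparison, and 1 closest gene per member is named by correlation. Alternatives were DESeq2 1.42.0, RLE and upper-quartile factors, no filter or one of 5 CPM, limma 3.58.1 on log2(FPKM + 1), fits of the groups compared, a replicate block and leaving out each library.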

Additional observations from a re-analysis of the deposited data

Results flagged for a closer look

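Of the 10 genes, 5 are set apart because their salt effect, tested as an interaction in edgeR, differed between the strains. The difference, lin-45 minus N2, was 1.95 on the log2 scale for bus-8, 0.74 for ajm-1, 0.68 for dlg-1, 0.41 for vab-10 and 0.36 for elt-5. For bus-8 both lin-45 libraries on 500 mM lay above both on 50 mM, while both N2 libraries on 500 mM lay below both on 50 mM. For ajm-1, dlg-1 and elt-5 the lin-45 effect had the sign of the N2 effect and was larger. It was 1.29 against 0.55 for ajm-1, 1.37 against 0.69 for dlg-1 and 1.2 against 0.83 for elt-5. For vab-10 the lin-45 effect was 0.46, while the N2 effect of 0.05 was not called and changed sign in some fits. Groups of 2 libraries are too small to be searched for outlying libraries.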

How the results depend on the processing

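Of 1260 values recomputed for the 10 genes, 1139 kept their direction and side of the threshold, 49 lost and 24 gained a call, and 48 changed sign. The causes were not tested. In the fit of the groups compared alone, 3 members and 1359 genes were called for preconditioned over other N2 embryos at 500 mM, and 2 members and 2897 genes between the strains at 500 mM. Leaving out 1 library gave 2 to 5 members and 1430.0 to 4260.0 genes for the first of these, and 0 to 1 members and 240.0 to 2206 genes for the second. It gave 5188 to 8568 genes between the strains at 50 mM, and 1 to 6 members and 787 to 5291 genes for the difference of salt effects.

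Changes of sign were found among values that were not called. For elt-3 between the strains at 50 mM the value was -0.03 with DESeq2 and RLE factors, -0.08 with upper-quartile factors, -0.11 with limma, -0.12 with no filter and -0.12 in the fit of those groups, and -0.12 to 0.06 without 1 library. For elt-1 the N2 salt effect was -0.01 with upper-quartile factors and -0.08 with no filter, and the lin-45 salt effect -0.05 to 0.15 without 1 library. The elt-1 difference of salt effects was 0.02 with DESeq2, 0.01 with RLE factors, 0.06 with upper-quartile factors, 0.09 with no filter, 0.1 in the fit of those groups and -0.1 to 0.11 without 1 library, and that of elt-6 -0.04 to 0.2. For vab-10 the N2 salt effect was -0.01 with upper-quartile factors, -0.09 with no filter, -0.08 with limma and -0.0028 to 0.1 without 1 library. For sma-1 the preconditioned over N2 500 mM value was 0.003 with DESeq2 and RLE factors, 0.05 with no filter, 0.07 with limma, 0.01 in the fit of those groups and -0.1 to 0.05 without 1 library. There vab-10 gave 0.02 with limma, ajm-1 -0.02 to 0.07 and dlg-1 -0.03 to 0.08 without 1 library. Against N2 at 50 mM, bus-8 gave -0.01 with upper-quartile factors, -0.03 with no filter and -0.07 to 0.12 without 1 library, and vab-10 -0.07 to 0.02. For sma-1 the strains at 500 mM differed by -0.07 to 0.01.

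Same-numbered replicates share only a number: their deviations correlated at -0.23 to 0.15 between groups, and nothing in the labels pairs them. With the replicate block 3 members were called for the difference of salt effects.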
